A study of Homo sapiens with 9 samples.

Results

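Long intergenic noncoding RNAs that carry a LINC name were followed in 3 stable lines of T47D human breast cancer cells. The genes were chosen by name, LINC and a digit, and selected on detection, a probe marked well above background by the scanner software on all 3 arrays of at least 1 line. This held for 272 of the 838 LINC names on the array, among 20097 genes of any kind that met the same detection rule. The control line, T47D-VC1, carried the empty vector, T47D-PA5 expressed an incomplete form of the noncoding RNA PTH-AS, and T47D-PA6 expressed full-length PTH-AS. All 3 lines carried the pTARGET vector backbone and had been selected with G418, and the supplement to the study describes 1 selected line with high expression, so that each group stands for 1 line. Each line was measured on 3 single-color arrays of total RNA, 9 in all, and the labels do not say whether the 3 came from separate cultures, so the p-values measure only the spread between these arrays. The incomplete form was included by the study to separate effects of full-length PTH-AS from artifacts of gene transfer.

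LINC is a provisional name given to RNAs longer than the usual small RNA classes that are transcribed between protein-coding genes and have no long open reading frame. Members of the group are known to act in different ways, such as holding RNA-binding proteins, serving as precursors of circular RNAs or microRNAs, or regulating a gene nearby, and some turned out to encode small proteins and were renamed. They are usually less abundant than mRNAs and their expression varies strongly between cell types.

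In current RefSeq annotation 254 of the 272 are listed as long noncoding RNAs, 13 as protein-coding genes and 3 as transcribed pseudogenes, and 2 had no match. A newer symbol replaced the LINC name for 53 of them, including CYTOR (LINC00152), NORAD (LINC00657), PURPL (LINC01021), MTLN (LINC00116) and NBDY (LINC01420). The LINC names of the array are used throughout. The array carried 1 tested probe for 189 of these genes and 2 to 7 for the other 83, and 1 tested probe, that of highest mean, stood for each gene. Signals are quantile-normalized intensities, and each probe's level is compared only with its own level in another line.

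The probes of the RNAs on which the results turned are shown here so that the transcript behind each value can be recognized. They are given 5′ to 3′ with their positions in hg19, the build of the files. Among genes detected on every array, LINC00221 had the largest difference between lines and LINC00632 the largest rise in T47D-PA6 over T47D-VC1, and LINC01116 and LINC01117 are a pair of neighbors on opposite strands.
LINC00221, chr14:106944845-106944904, plus strand: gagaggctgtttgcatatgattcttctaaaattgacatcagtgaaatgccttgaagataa
LINC00221, second probe, chr14:106950219-106950278, plus strand: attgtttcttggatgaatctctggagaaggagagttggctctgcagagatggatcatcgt
LINC00632, chrX:139854449-139854508, plus strand: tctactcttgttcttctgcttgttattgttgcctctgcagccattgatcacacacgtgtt
LINC01116, chr2:177494668-177494727, minus strand: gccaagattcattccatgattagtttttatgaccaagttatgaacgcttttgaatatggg
LINC01117, chr2:177504231-177504290, plus strand: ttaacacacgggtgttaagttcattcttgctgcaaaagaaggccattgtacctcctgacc
LINC01208, chr3:176322120-176322179, minus strand: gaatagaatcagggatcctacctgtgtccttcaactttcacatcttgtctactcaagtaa
LINC01405, chr12:111375193-111375252, plus strand: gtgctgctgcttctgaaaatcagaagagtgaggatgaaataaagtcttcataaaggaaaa
LINC01563, chr17:20979250-20988112, plus strand, a probe joined across an intron: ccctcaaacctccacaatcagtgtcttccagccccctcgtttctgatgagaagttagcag

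Of the 272 genes, 230 were detected on each of the 9 arrays, and these 230 were counted and tested. Another 38 were detected on all arrays of 1 or 2 lines and on some arrays of the rest, and 4 were on no array of some line. Below the rule, 29 LINC genes reached at best 2 of 3 arrays of a line, 86 reached 1 of 3, and 451 were on no array. The highest signal of the 29 genes just outside the rule was 14.5 to 207 (median 22.6). For the 21 genes just inside it, with exactly 1 line on all 3 arrays, the highest signal was 17.8 to 42.9 (median 25.7).

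The arrays showed luminal breast cells in every line. All 10 T47D marker genes, among them ESR1, GATA3 and KRT8, were detected on each of the 9 arrays, with a summed signal of 493000 to 532000, and none of 3 basal breast markers was tested. In T47D-PA6 over T47D-VC1, 2 of the 10 passed, both targets of the estrogen receptor, PGR lower (-1.07, limma adjusted p = 0.0073) and TFF1 higher (1.62, adjusted p = 0.0011). Summed signals, which serve only to compare a list across arrays, were 45.3 to 73.6 for 3 endothelial markers, 63.5 to 234 for 2 leukocyte markers and 291 to 883 for 5 fibroblast markers. The leukocyte sum was 63.5 to 76.6 in T47D-VC1 and 122 to 234 in the other lines. CD14 had means of 47.8, 115 and 167 in T47D-VC1, T47D-PA5 and the full-length line, while PTPRC, the pan-leukocyte marker, was at 20.3, 20.8 and 18. The fibroblast sum was 436 to 511 in T47D-VC1, 504 to 883 in T47D-PA5 and 291 to 374 in T47D-PA6. THY1 was lower in T47D-PA6 than in T47D-PA5 (-2.03, limma adjusted p = 0.032). COL1A1 was lower in T47D-PA6 than in T47D-VC1 (-0.5, limma adjusted p = 0.02). The part of such cells in the results was not tested. Replicate 1 of every line was on slide 1, scanned apart from the others, and stood apart in signal. For the 230 LINC genes the median absolute log2 difference between replicate 1 and the other replicates of a line was 0.25 to 0.31, against 0.11 to 0.14 between replicates 2 and 3. The median SD of a LINC gene within a line was 0.18 to 0.21 on the log2 scale, against 0.14 to 0.17 over the 18243 genes on all 9 arrays.

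In the comparison of T47D-PA6 with T47D-VC1, 24 of the 230 LINC genes passed the test, 14 higher and 10 lower in T47D-PA6. That is 10.4% of the LINC genes, beside 9.5% of all 18243 genes on all 9 arrays, so the share was near the background. By direction, 6.09% of the LINC genes rose, against 4.3% of all genes, and 4.35% fell, against 5.2%. The tests were limma's moderated tests in 1 fit over the 9 arrays, adjusted by Benjamini-Hochberg over all 20097 genes. The median LINC gene differed by 0.01 on the log2 scale, and the median gene by -0.03. The rises were between 0.46 and 1.86, and the falls reached -2.11. For all 24 the arrays of the lines did not overlap. That alone fixes the same sign within each of the 2 slides that held both lines, so the slides add no separate support. Arrays that did not overlap were counted for 37 LINC genes that were higher (16.1%, against 12.9% of all genes) and 25 that were lower (10.9%, against 17.8%).

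**Figure D1:**
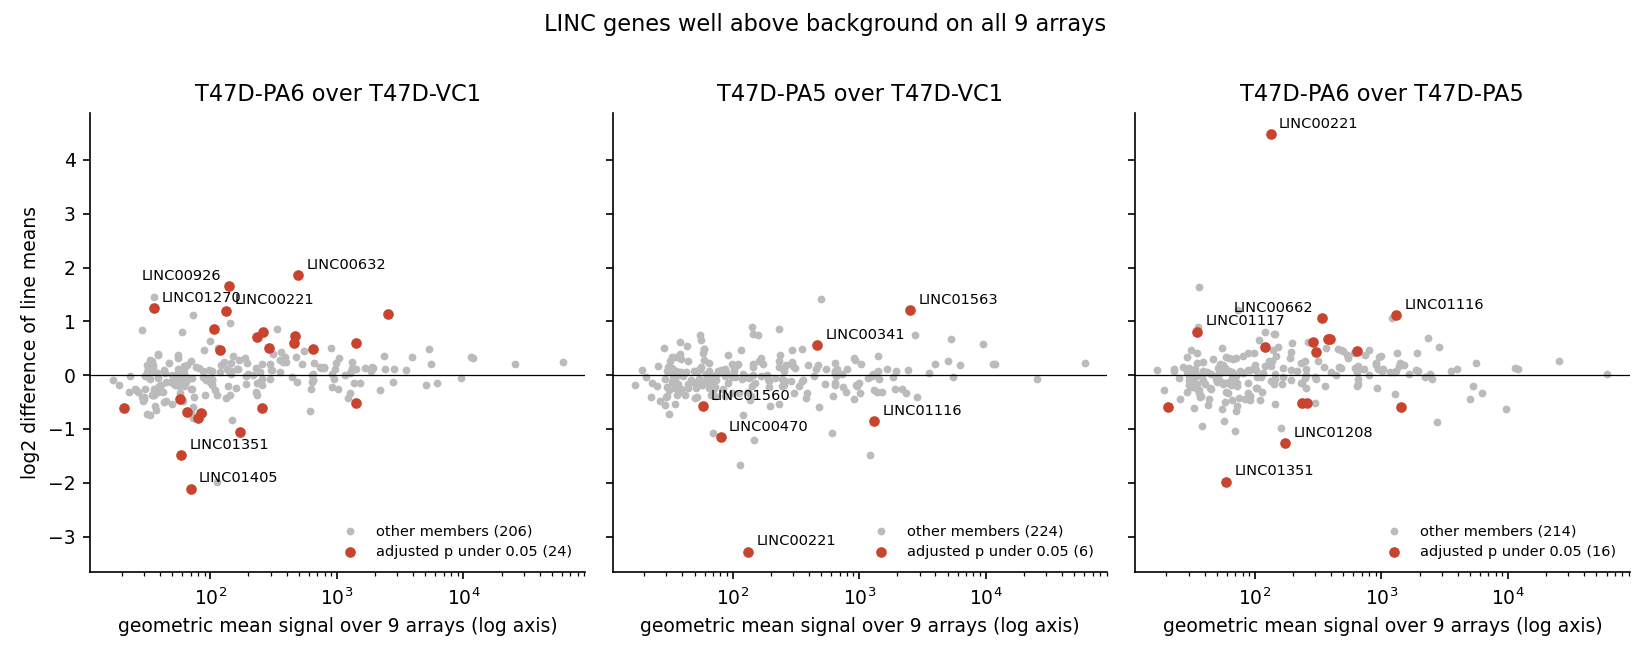
Log2 difference of line means (vertical) against the geometric mean normalised signal over 9 arrays (horizontal, log axis) for the 230 LINC genes well above background on all 9 arrays, with 1 panel per comparison. Red points have an adjusted p under 0.05 (24, 6 and 16 genes), gray points do not, and LINC00221 lies far from the rest in both panels that involve T47D-PA5.

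The largest rise among the 230 belonged to LINC00632, the RNA from whose locus the circular RNA CDR1-AS, a sponge for the microRNA miR-7, is made. Its signal was 139, 315 and 288 on the T47D-VC1 arrays and 581, 1020 and 1020 on the T47D-PA6 arrays. Every T47D-PA6 array lay above every control array, and replicate 1 was the lowest of its line in each case. The difference was 1.86 (SE 0.34, 3.63-fold, limma adjusted p = 0.014), and it was 2.06 within slide 1 and 1.83 within slide 3. The second probe of LINC00632 differed by 1.85.

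The probe nearest to LINC00632 under another name was also higher in T47D-PA6. This probe, lnc-RP1-177G6.2.1-2, at chrX:139866750-139866809 on the same strand and 12.3 kb away, averaged 327 in the control line, 2760 in T47D-PA5 and 1390 in T47D-PA6. It rose by 2.09 in T47D-PA6 (SE 0.24, limma adjusted p = 0.002) and by 3.08 in T47D-PA5 (adjusted p = 0.001), both against T47D-VC1. LINC00632 itself was at 513, 656 and 716 in T47D-PA5, all above the 3 control arrays, with a difference of 1.42 (SE 0.34) that did not pass the test (adjusted p = 0.087). LINC00632 was highest in T47D-PA6 and the other probe in T47D-PA5. In T47D-PA6 over T47D-PA5 the values were 0.44 (adjusted p = 0.47) for LINC00632 and -0.99 (adjusted p = 0.038) for the other probe. Whether that probe reads a separate gene or RNA of the LINC00632 locus, such as CDR1-AS, was not tested. LDOC1, 415 kb away and encoding a leucine zipper protein, also rose, by 0.70 in T47D-PA6 (adjusted p = 0.0097) and 1.03 in T47D-PA5 (adjusted p = 0.005). SOX3, a transcription factor gene 269 kb to the other side, did not pass (0.27 in T47D-PA6, adjusted p = 0.54). These 3 comparisons share arrays, so their values are given side by side only.

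LINC00926 was next. Its signal was 133, 60.6 and 59.4 in T47D-VC1 and 248, 237 and 261 in T47D-PA6. The 3 T47D-PA6 arrays were close together and above all control arrays, of which replicate 1 was the highest. The difference was 1.66 (SE 0.29, limma adjusted p = 0.012), with 0.89 within slide 1 and 2.06 within slide 3. TCF12, the transcription factor gene 19.8 kb away on the same strand, differed by -0.07 (adjusted p = 0.80).

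LINC01270 lies downstream of CEBPB, which encodes a transcription factor of the C/EBP family. Its signal was 18.4, 32.1 and 25.7 in T47D-VC1 and 52.1, 62.5 and 60.9 in T47D-PA6, so that every T47D-PA6 array was above the controls. It rose by 1.24 (SE 0.31, limma adjusted p = 0.041). CEBPB, 122 kb away, rose by 0.70 in the same comparison (SE 0.14, adjusted p = 0.017) and by 0.97 over T47D-PA5 (adjusted p = 0.0058), where LINC01270 did not pass (0.89, adjusted p = 0.11) except with the replicate block (adjusted p = 0.029). LINC01273, another member on the far side of CEBPB, averaged 110 in T47D-VC1 and 214 in T47D-PA6 and missed the threshold (0.97, SE 0.26, adjusted p = 0.053), which it passed with the replicate block (adjusted p = 0.0076). The replicate numbers were not shown to be pairs. Of 16 other tested genes within 500 kb of LINC01270, 2 passed in T47D-PA6 over T47D-VC1, CEBPB and FAM65C. FAM65C, 271 kb to the other side of LINC01270, was lower (-0.99, SE 0.25, limma adjusted p = 0.044).

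Among the other RNAs that rose, LINC01136 is the divergent transcript of BTG2, an antiproliferative gene. Its signal was 67, 94.7 and 95.1 in T47D-VC1 and 140, 158 and 159 in T47D-PA6. The groups did not overlap, and the rise was 0.85 (SE 0.22, limma adjusted p = 0.045), while BTG2 itself, 8.81 kb away, differed by 0.47 and did not pass (adjusted p = 0.20). LINC00853 rose by 0.80 (SE 0.20, adjusted p = 0.041), and its neighbor on the same strand, lnc-CYP4A22-2, only 0.509 kb away, rose by 0.67 (adjusted p = 0.021). LINC00152, known as the cytoskeleton regulator RNA CYTOR and often raised in tumors, was at 962, 1280 and 1180 in T47D-VC1 and at 1570, 1760 and 1820 in T47D-PA6. It rose by 0.60 (SE 0.14, adjusted p = 0.033), without overlap between the groups, and missed the threshold with the slide as a block (adjusted p = 0.062). LINC01503, LINC01478, LINC01018, LINC01296 and LINC01119 rose by 0.46 to 0.70, and with the slide as a block LINC01503 and LINC01119 missed the threshold (adjusted p = 0.066 and 0.055). LINC01296 is now listed as the pseudogene DUXAP9, one of a family with near-identical copies, so its signal cannot be assigned to 1 locus. Its probes disagreed, with 0.49 for the reported one and -0.25 and -0.15 for the others, and the call was lost with the mean of its probes.

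The largest fall was that of LINC01405, listed in RefSeq as VHRT and neighbor of the myosin light chain gene MYL2. Its signal was 100, 181 and 173 in T47D-VC1 and 63.3, 22.9 and 26.8 in T47D-PA6. The groups did not overlap, but replicate 1 was the lowest control array and the highest T47D-PA6 array. LINC01405 fell by 2.11 on the log2 scale (SE 0.44, limma adjusted p = 0.023), by 0.67 within slide 1 and by 2.8 within slide 3. MYL2, 23.2 kb away, differed by -0.10 in this comparison.

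LINC01351, the divergent transcript of the brain gene BRINP3, was nearly level in T47D-VC1 (75.5, 75.1 and 73.2) and lower in T47D-PA6 (54.4, 17.6 and 19.4). Here too replicate 1 was the T47D-PA6 array nearest to the controls. The fall was -1.49 (SE 0.37, limma adjusted p = 0.042) and missed the threshold with the slide as a block (adjusted p = 0.067). LINC01208 was at 189, 219 and 224 in T47D-VC1 and at 114, 94.9 and 96.5 in T47D-PA6. No array of T47D-PA6 came near the controls, and LINC01208 fell by 1.05 on the log2 scale (SE 0.14, adjusted p = 0.0041). Its second probe was dim and not well above background on every array, and the call was lost with the mean of both probes.

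LINC00910, LINC00634, LINC00870, LINC01431, LINC00674 and LINC01560 made up the smaller falls. LINC00634, now the small-protein gene SMIM45, fell from a mean of 81.1 to 50.2, a difference of -0.69 (SE 0.14, limma adjusted p = 0.021). LINC00910 fell by 0.70 on the log2 scale (SE 0.14, adjusted p = 0.02). LINC00674 was at 1610, 1630 and 1470 in T47D-VC1 and at 1260, 1040 and 1020 in T47D-PA6, without overlap. It fell by 0.51 on the log2 scale (SE 0.13, adjusted p = 0.04), and KPNA2, an importin gene 56.5 kb away on the same strand, differed by -0.34 (adjusted p = 0.071).

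The count of 24 depended on the arrays. With replicates 2 and 3 alone 68 LINC genes passed, and all 24 were among them. Without replicate 2 or replicate 3 of T47D-PA6 4 passed. The count over all tested genes moved too, from 2015 to 7460 with replicates 2 and 3 alone and to 783 and 697 without those arrays. Over 21 alternative settings the single calls were kept in 7 (LINC01560) to 21 (LINC00341).

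**Figure D2:**
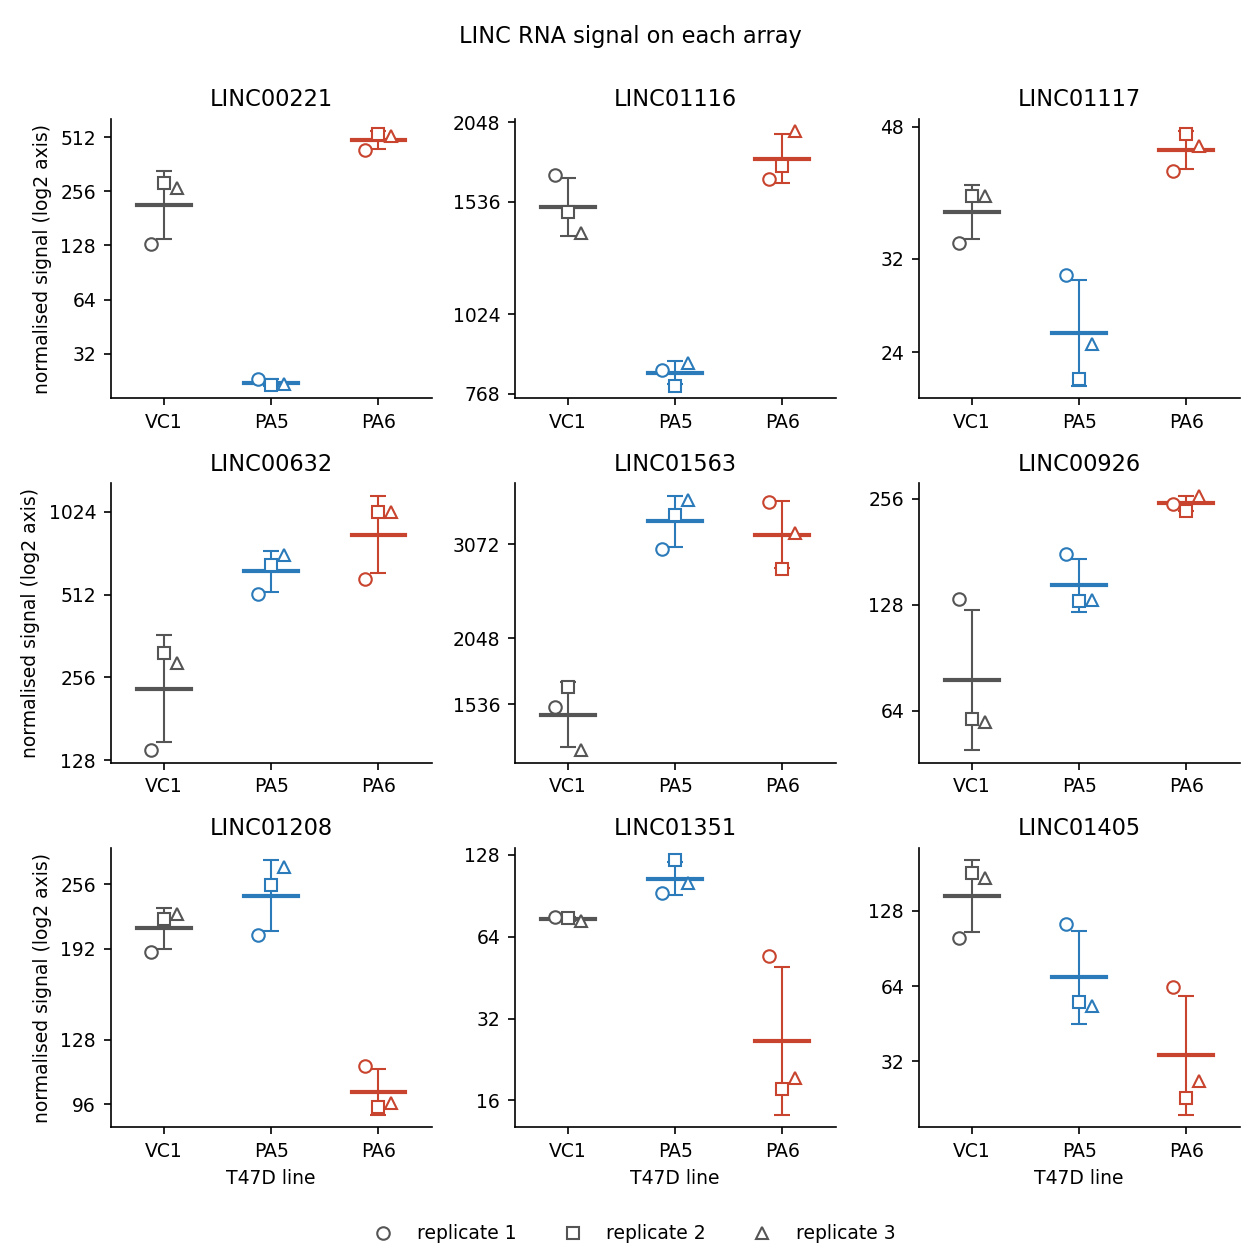
Normalised signal (vertical, log2 axis) of 9 LINC RNAs on each array by T47D line (VC1, empty vector; PA5, incomplete PTH-AS; PA6, full-length PTH-AS). Markers are the 3 arrays of a line, thick lines geometric means and thin bars 1 SD on the log2 scale; LINC00221 falls to between 21.4 and 23.1 in T47D-PA5, and replicate 1 often lies apart from replicates 2 and 3.

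T47D-PA5 differed from T47D-VC1 in fewer LINC genes. Of the 230, 6 passed the test, 2 higher and 4 lower, or 2.61% against 1.38% of all genes. All genes on all 9 arrays passed mostly upward (1.16% higher, 0.214% lower), while the LINC genes divided into 0.87% higher and 1.74% lower. The 4 that fell were LINC00221, LINC00470, LINC01116 and LINC01560, and the 2 that rose were LINC01563 and LINC00341. The median LINC gene and the median gene both differed by -0.03. Arrays that did not overlap were counted for 27 higher LINC genes (11.7%, against 10.7% of all genes) and 36 lower ones (15.7%, against 12%).

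LINC00221 had the largest difference between any pair of lines among the 230. Its signal was 130, 286 and 268 in T47D-VC1, 23.1, 21.4 and 21.8 in T47D-PA5, and 433, 531 and 522 in T47D-PA6. The 3 lines did not overlap at all, with T47D-PA5 near the lowest signals well above background and T47D-PA6 the highest. LINC00221 fell by 3.28 on the log2 scale in T47D-PA5 against T47D-VC1 (SE 0.27, limma adjusted p = 0.0015). In T47D-PA6 it rose by 1.2 over T47D-VC1 (SE 0.27, adjusted p = 0.03) and by 4.48 over T47D-PA5 (22.3-fold, SE 0.27, adjusted p = 0.00018). LINC00221 kept its call over T47D-VC1 in 12 of 21 alternative settings and that over T47D-PA5 in 21. Its second probe had means of 220 in the control line, 13.1 in T47D-PA5 and 458 in T47D-PA6. Only 1 other tested gene lay within 500 kb, and it differed by -0.25 in T47D-PA5 against T47D-VC1.

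LINC01019 had a like order of lines but stood outside the 230, since 1 T47D-PA5 array did not detect it. Its signal was 150, 120 and 93.4 in T47D-VC1, 15.4, 34.7 and 58.9 in T47D-PA5, and 508, 566 and 524 in T47D-PA6. The lines did not overlap. The difference was 2.16 in T47D-PA6 over T47D-VC1, -1.91 in T47D-PA5 over T47D-VC1 and 4.07 in T47D-PA6 over T47D-PA5. No p-value is given, since LINC01019 met the detection rule only through the lines where it was higher. Its second probe, detected on every array, had means of 41.8, 20.1 and 130 in the same order.

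LINC01116 and LINC01117 lie next to each other on chromosome 2, beyond MTX2 at the end of the HOXD gene cluster, and both were lowest in T47D-PA5. LINC01116 was at 1690, 1480 and 1370 in T47D-VC1, 838, 791 and 859 in T47D-PA5 and 1670, 1750 and 1980 in T47D-PA6. The T47D-PA5 arrays were far below both other lines, which overlapped each other. LINC01116 fell by 0.86 on the log2 scale in T47D-PA5 against T47D-VC1 (SE 0.11, limma adjusted p = 0.01) and was higher by 1.11 in T47D-PA6 over T47D-PA5 (SE 0.11, adjusted p = 0.0021). Its other 4 probes gave -1 to -1.12 and 1.12 to 1.18 for the same differences. LINC01117 was at 33.6, 38.8 and 38.8 in T47D-VC1, 30.4, 22.1 and 24.6 in T47D-PA5 and 41.9, 47 and 45.2 in T47D-PA6. These groups did not overlap either, and LINC01117 was higher by 0.81 in T47D-PA6 over T47D-PA5 (SE 0.13, adjusted p = 0.0092), while -0.54 in T47D-PA5 against T47D-VC1 missed the threshold (adjusted p = 0.097). A probe without a gene name, 0.363 kb from the reported LINC01116 probe, gave -0.87 (adjusted p = 0.11) and 1.03 (adjusted p = 0.026). It lies on the same strand and overlaps other LINC01116 probes in position, so it is not a separate neighbor. MTX2, a mitochondrial import gene 292 kb away, was higher by 0.34 in T47D-PA6 over T47D-PA5 (adjusted p = 0.048).

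**Figure D3:**
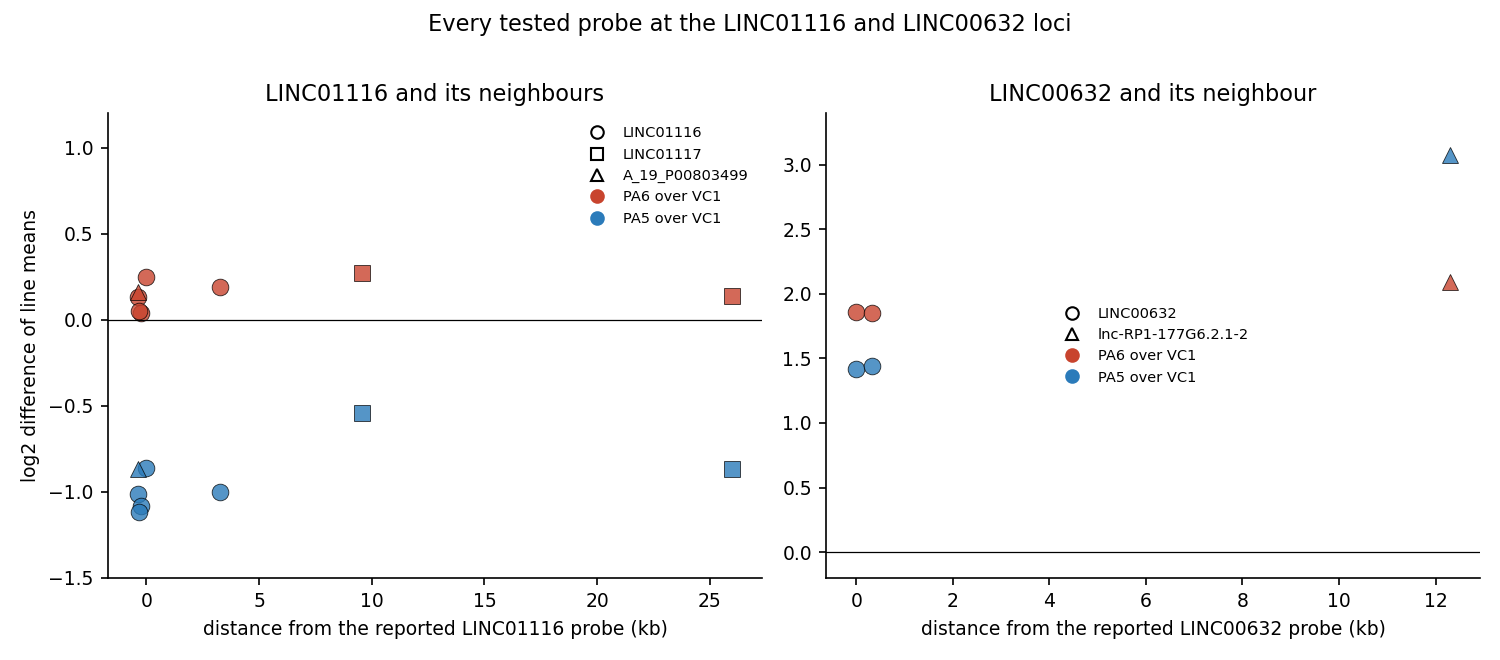
Log2 difference of line means (vertical) of every tested probe of LINC01116 and LINC01117 (left) and of LINC00632 (right), with the nearest other probe, against distance from the reported probe in kb (horizontal). Red marks T47D-PA6 over T47D-VC1 and blue T47D-PA5 over T47D-VC1: all LINC01116 and LINC01117 probes lie below 0 in T47D-PA5, and all probes at the LINC00632 locus lie above 0 in both lines.

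In RefSeq the pair starts from a shared promoter region. The start of LINC01117 lies 145 bases from that of LINC01116, in the opposite direction, and the promoter windows of 300 bases (250 before and 50 after each start) have 244 bases in common. The LINC01116 window, chr2:176637560-176637859 on the minus strand of GRCh38.p14, holds 34 CG dinucleotides, and the part it shares with the LINC01117 window is in capitals.
LINC01116 promoter: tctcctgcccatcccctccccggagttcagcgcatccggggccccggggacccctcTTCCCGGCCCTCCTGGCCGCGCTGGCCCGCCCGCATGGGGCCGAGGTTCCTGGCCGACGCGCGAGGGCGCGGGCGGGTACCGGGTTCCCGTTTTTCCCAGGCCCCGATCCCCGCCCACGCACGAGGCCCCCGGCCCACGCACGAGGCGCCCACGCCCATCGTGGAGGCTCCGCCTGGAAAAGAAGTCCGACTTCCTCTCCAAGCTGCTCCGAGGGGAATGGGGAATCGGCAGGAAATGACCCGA

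LINC01563 and LINC00341 were higher in both PTH-AS lines than in T47D-VC1 (0.87% of LINC genes, against 0.674% of all genes). LINC01563 was at 1520, 1660 and 1260 in T47D-VC1, 3010, 3490 and 3730 in T47D-PA5 and 3690, 2760 and 3230 in T47D-PA6. Both lines lay above every control array and overlapped each other. It rose by 1.21 in T47D-PA5 (SE 0.15, limma adjusted p = 0.0088) and by 1.13 in T47D-PA6 (SE 0.15, adjusted p = 0.0041). LINC00341, which RefSeq lists as a synonym of the nuclear envelope gene SYNE3, rose by 0.56 in T47D-PA5 (SE 0.11, adjusted p = 0.047) and by 0.72 in T47D-PA6 (SE 0.11, adjusted p = 0.0066). The array's own SYNE3 probe, 10.3 kb away on the same strand, differed by -0.06 and -0.32 and did not pass in either.

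LINC00470 and LINC01560 were lower in both lines (0.87% of LINC genes, against 0.0932% of all genes). LINC00470 was at 166, 111 and 108 in T47D-VC1, 55, 60.6 and 54.8 in T47D-PA5 and 69.2, 73.5 and 74.8 in T47D-PA6, without overlap of either line with the controls. It fell by 1.15 on the log2 scale in T47D-PA5 (SE 0.16, limma adjusted p = 0.014) and by 0.80 in T47D-PA6 (SE 0.16, adjusted p = 0.021). Its second probe gave -1.44 and -1.52. LINC01560 fell by 0.57 (SE 0.11, adjusted p = 0.043) and 0.44 (SE 0.11, adjusted p = 0.042), calls that were kept in 8 and 7 of 21 alternative settings and lost with normexp, the intensity trend and the fit to the compared lines alone.

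The count of 6 also depended on the arrays. With replicates 2 and 3 alone 45 LINC genes passed, all 6 among them, and without replicate 2 or replicate 3 of T47D-PA5 2 and 1 passed. Over all tested genes the count went from 334 to 4296, and to 118 and 99. The calls were kept in 8 (LINC00341 and LINC01560) to 20 (LINC00221) of 21 settings.

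The comparison of T47D-PA6 with T47D-PA5 sets the full-length against the incomplete RNA. In it 16 of the 230 LINC genes passed the test, 10 higher and 6 lower in T47D-PA6, or 6.96% against 9.14% of all genes. The rises were 4.35% of LINC genes against 3.31% of all genes, and the falls 2.61% against 5.83%. The median LINC gene differed by 0.06 and the median gene by 0. All 16 had arrays that did not overlap. Among all 230, arrays did not overlap for 34 higher (14.8%, against 14.3%) and 30 lower (13%, against 18.5%).

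After LINC00221 and LINC01116 the largest rise was that of LINC00662. Its signal was 285, 225 and 249 in T47D-PA5 and 347, 689 and 604 in T47D-PA6, beside 294, 283 and 289 in T47D-VC1. Replicates 2 and 3 of T47D-PA6 stood well above replicate 1. The difference was 1.06 (SE 0.23, limma adjusted p = 0.027), with 0.28 within slide 1 and 1.37 within slide 3, and it missed the threshold with the slide as a block (adjusted p = 0.059). The other 3 probes of LINC00662 differed by 0.25 to 0.75. LINC00867 did not pass (1.06, adjusted p = 0.2) but did with the replicate block (adjusted p = 0.0059), though replicate numbers were not shown to be pairs. It was at 408, 866 and 889 in T47D-PA5 and at 920, 1680 and 1850 in T47D-PA6, higher in T47D-PA6 for each replicate number, with replicate 1 lowest in both lines.

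LINC01016, an RNA known to be regulated by the estrogen receptor in breast cancer, was at 272, 307 and 299 in T47D-PA5 and at 553, 421 and 440 in T47D-PA6. T47D-VC1, at 361, 386 and 439, lay between and overlapped T47D-PA6. LINC01016 was higher by 0.68 in T47D-PA6 over T47D-PA5 (SE 0.13, limma adjusted p = 0.017), and its other 3 probes were 1.02 to 1.38 higher. LINC01389 was at 300, 310 and 313 in T47D-PA5 and at 483, 452 and 540 in T47D-PA6. The groups were well apart, and the difference was 0.67 (SE 0.10, adjusted p = 0.007). LINC01018, LINC01119, LINC01296 and LINC01234 were 0.43 to 0.61 higher.

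The largest fall was that of LINC01351, at 92.8, 122 and 101 in T47D-PA5 and at 54.4, 17.6 and 19.4 in T47D-PA6. It fell by 1.98 on the log2 scale (SE 0.37, limma adjusted p = 0.015). LINC01208, at 204, 255 and 276 in T47D-PA5, fell by 1.26 (SE 0.14, adjusted p = 0.0027). LINC00674, LINC00870, LINC00240 and LINC01431 fell by 0.51 to 0.59. KPNA2, near LINC00674, fell by 0.54 in this comparison (adjusted p = 0.015). The probes of LINC00240 disagreed, with -0.51 for the reported one and 0.36 for the other. With the replicate block LINC00240, LINC00870 and LINC01431 missed the threshold (adjusted p = 0.058, 0.057 and 0.051).

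With replicates 2 and 3 alone 73 LINC genes passed in this comparison, all 16 among them. Without replicate 2 or replicate 3 of T47D-PA5 6 passed. Over all tested genes the count went from 1953 to 7134, and to 848 and 772. The calls were kept in 6 (LINC00870) to 21 (LINC00221, LINC01116 and LINC01389) of 21 settings.

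**Figure D4:**
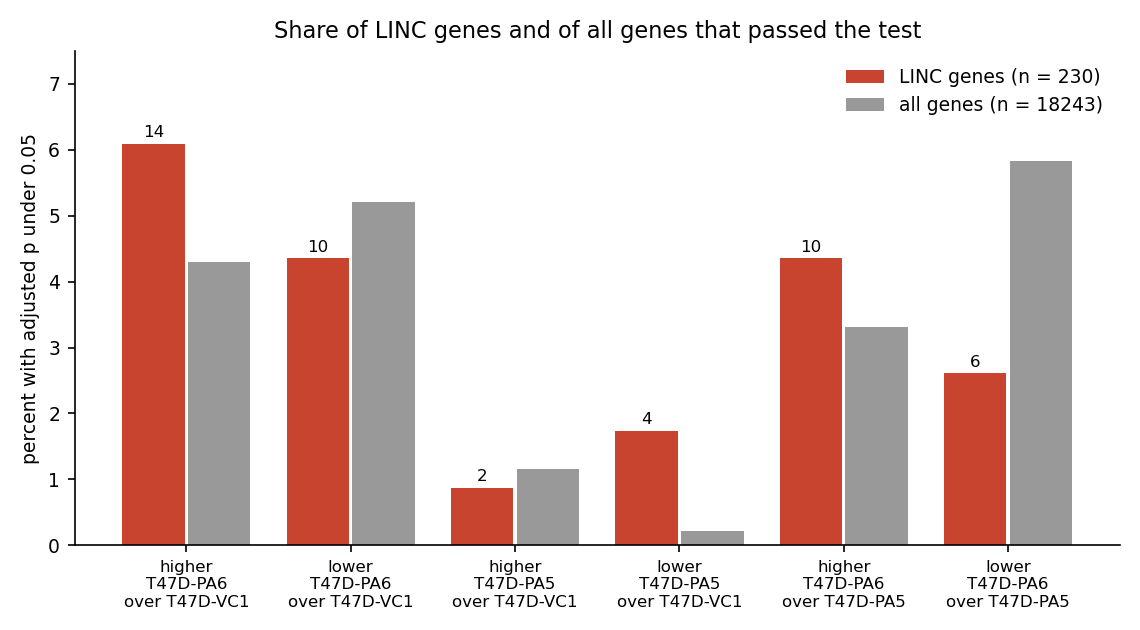
Percent of the 230 LINC genes (red) and of all 18243 genes on all 9 arrays (gray) with an adjusted p under 0.05, by comparison and direction, with the number of LINC genes above each red bar. The LINC share is near the share of all genes for rises, below it for falls in T47D-PA6 over T47D-PA5 (2.61% against 5.83%) and rests on 4 genes for falls in T47D-PA5.

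Over the 3 comparisons 31 of the 230 LINC genes passed at least once, or 13.5% against 14.2% of all genes. LINC00221, LINC01018, LINC01119 and LINC01296 were higher in T47D-PA6 than in both other lines (1.74% of LINC genes, against 1.82%), LINC01296 by its reported probe only. With the mean of all tested probes the calls of LINC00221, LINC01119 and LINC01296 over T47D-VC1 were lost. LINC00674, LINC00870, LINC01208, LINC01351 and LINC01431 were lower in T47D-PA6 than in both (2.17%, against 2.67%). With the mean of its probes LINC01208 lost its call in both comparisons. LINC00221 and LINC01116 were lower in T47D-PA5 than in both (0.87%, against 0.11%), and no LINC gene was higher there than in both (against 0.411%).

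By role, of 8 LINC genes listed as encoding a small protein, 6 were on all 9 arrays and 0 passed limma's adjusted test in any comparison. The list does not hold LINC00634 (SMIM45), which passed in T47D-PA6 over T47D-VC1 (-0.69, limma adjusted p = 0.021). For the list, the counts at an unadjusted p under 0.05 were 1 in T47D-PA6 over T47D-VC1, 4 in T47D-PA5 over T47D-VC1 and 4 in T47D-PA6 over T47D-PA5, beside 25.8%, 14.5% and 23.9% of all genes on all 9 arrays. LINC00493, which encodes the mitochondrial protein SMIM26, averaged 24600 in the control line, 23500 in T47D-PA5 and 28400 in T47D-PA6. LINC01420, which encodes the decapping-linked peptide NBDY, came closest with 0.31 in T47D-PA6 over T47D-VC1 (limma adjusted p = 0.057). LINC00467 was at 1420, 2950 and 3240 in T47D-VC1 and at 3540, 4240 and 4270 in T47D-PA5, all above the controls, but the difference of 0.75 did not pass (adjusted p = 0.25).

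Among RNAs tied to estrogen receptor positive breast cancer, 3 of 5 were on all 9 arrays, and LINC01016 was the 1 that passed. It did so in T47D-PA6 over T47D-PA5, where 9.14% of all genes on all 9 arrays passed. LINC00472 was at 110, 53.8 and 94.8 in T47D-VC1 and at 58.9, 54.4 and 42.7 in T47D-PA6, with a difference of -0.68 that did not pass (limma adjusted p = 0.13). LINC00052 was detected on 1 array of T47D-VC1 and on all arrays of both other lines, so it entered no count. Its signal was 3.33, 14.4 and 20.4 in T47D-VC1, 52.9, 19.1 and 25 in T47D-PA5 and 17.4, 105 and 108 in T47D-PA6, with replicate 1 apart from the others in all 3 lines. Of 12 RNAs studied in cancer or genome stability, 9 were on all 9 arrays. LINC00152 rose in T47D-PA6 over T47D-VC1, LINC01116 fell in T47D-PA5, and LINC01116 and LINC00662 rose in T47D-PA6 over T47D-PA5. These are 1, 1 and 2 of 9, beside 9.5%, 1.38% and 9.14% of all genes on all 9 arrays. LINC00657, the Pumilio-binding RNA NORAD, averaged 1170, 1140 and 1180 in the same order of lines, and LINC01021, the p53-induced RNA PURPL, averaged 101, 100 and 106. For comparison, of 30 other well-known noncoding RNAs on all 9 arrays, such as MALAT1 and NEAT1, 1 rose and 3 fell in T47D-PA6 against T47D-VC1. Of all genes 4.3% rose and 5.2% fell. In T47D-PA5 against T47D-VC1 limma called 0 of the 30, beside 1.38% of all genes. At an unadjusted p under 0.05 there were 7, beside 14.5% of all genes.

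The 4 genes on no array of some line were all dim. LINC00929 was well above background only in T47D-PA6 (17.8, 12.3 and 12.6), at least 1.12-fold above T47D-VC1 and 1.08-fold above T47D-PA5. LINC00942 was on no array of T47D-VC1, with T47D-PA5 at least 1.43-fold and T47D-PA6 at least 1.13-fold higher, the latter detected on 2 of 3 arrays. LINC00871 was on no array of T47D-PA5, and T47D-VC1 was at least 1.33-fold and T47D-PA6, detected on 2 of 3 arrays, at least 1.58-fold higher. LINC00959, now the gene C10orf143, was on no array of T47D-PA6, and T47D-VC1 was at least 1.54-fold higher. These bounds set the mean of the brighter line, over all 3 arrays, against the higher of the dim probe and the lowest detected signal on each array, and they are small.

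Neighboring genes were examined for all members. For 210 of the 230 LINC genes the nearest tested gene was also on all 9 arrays, at a median distance of 37.4 kb. The log2 differences of member and neighbor correlated at r = 0.23, 0.21 and 0.24 in T47D-PA6 over T47D-VC1, T47D-PA5 over T47D-VC1 and T47D-PA6 over T47D-PA5, across 210 pairs that share the same arrays. With protein-coding neighbors only (224 pairs) r was 0.19, 0.03 and 0.18. Of 38 interferon-induced genes on all 9 arrays, 36 rose in T47D-PA6 over T47D-VC1 and 17 in T47D-PA5 over T47D-VC1. Of all genes on all 9 arrays, 4.3% and 1.16% rose in these comparisons. No LINC gene had one of the 38 as its nearest neighbor, which says little, since they are 38 among 18243 genes. The interferon-stimulated response element, searched as GAAANNGAAA on both strands, occurred in 6 of 192 RefSeq promoter windows (3.12%), which belong to 172 of the 230 LINC genes, and in 3.57% of 35116 promoters of all genes. It was in 0 of the 28 windows of the 23 genes that passed in a comparison and have one. The interferon-gamma activated sequence, searched as TTCNNNGAA, was in 14 of 192 (7.29%), against 7.66% of all promoters, and in 3 of those 28 (10.7%). The estrogen response element, searched as GGTCANNNTGACC, was in 0 of 192, against 0.057%. These are matches of letters in the window and not binding sites.

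Where a LINC gene had several tested probes, they could be set side by side. Of 79 such genes on all 9 arrays, 47, 44 and 49 had the same sign on every probe in T47D-PA6 over T47D-VC1, T47D-PA5 over T47D-VC1 and T47D-PA6 over T47D-PA5. Among genes that passed, this was so for 11 of 12, 3 of 3 and 12 of 14.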

How the data were processed

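The authors hybridized total RNA of 3 T47D lines to Agilent single-color arrays and deposited scanner files, which hold per spot a processed intensity, background-subtracted and detrended, and, per the file headers, flags marking a spot as well above background (yes or no, unit other). The files name Feature Extraction 10.7.1.1 and the submitters' notes 9.5.1.1. The authors also deposited a quantile-normalized table of intensities, whose log2 values correlated at 1 with those used here. Of 62976 spots, 60901 were not controls (58201 probes). Outlier spots (46 to 117 per array) were left out, spots of a probe averaged, and log2 values quantile-normalized as in the methods. No spot was saturated, and 44% to 48% of probes were well above background. The number of arrays limits the precision.

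Tested probes were those marked well above background on all 3 arrays of some line, 1 per gene (the highest mean), which gave 20097 genes. The 3 comparisons were fitted with limma 3.58.1 (lmFit, eBayes) in R 4.3.3 over 9 arrays (6 residual degrees of freedom), with Benjamini-Hochberg adjustment at a threshold of 0.05, with input through version 1.17.8 of the data.table package. The fit was tested on simulated data. Genes named are the 6 largest rises and falls per comparison among LINC genes that passed on all 9 arrays, those on no array of a line, and the role lists; LINC01018, LINC01119, LINC01296 and other members beyond these, and neighbors, were named after their values were seen. The members and lists were chosen with earlier results of these data known. RefSeq symbols matched 217 members, accessions 37 and synonyms 16, while 2 kept the file's name. Probe positions are hg19, and promoters are RefSeq on GRCh38.p14.

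Arrays of the same replicate number had correlated deviations for T47D-PA6 with T47D-VC1 (0.336, 0.131 and 0.241) and with T47D-PA5 (0.271, 0.165 and 0.167). For T47D-PA5 with T47D-VC1 the correlations were 0.208, 0.099 and 0.121. Arrays of different numbers among replicates 2 and 3 correlated too (0.244 for T47D-VC1 replicate 2 with T47D-PA6 replicate 3). Replicate 1 therefore stood apart, but a pairing of replicates 2 and 3 by number was not shown. Replicates 1 of all lines were on slide 1 and scan 1, T47D-VC1 and T47D-PA5 replicates 2 on slide 2, and the rest on slide 3. Alternatives covered normalization, background correction (normexp, offset 50), the authors' table, filters, choice of probe, slide and replicate blocks, an intensity trend, the methods' t-test, fits to fewer lines and arrays left out.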

Additional observations from a re-analysis of the deposited data

How the results depend on the processing

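Without replicate 1 of any line, 68, 45 and 73 LINC genes passed in T47D-PA6 over T47D-VC1, T47D-PA5 over T47D-VC1 and T47D-PA6 over T47D-PA5, in place of 24, 6 and 16, and with the methods' t-test after Benjamini-Hochberg adjustment 4, 0 and 7 did (45, 38 and 42 at an unadjusted p under the threshold). Over all tested genes the counts moved from 2015, 334 and 1953 to 7460, 4296 and 7134, and with the t-test to 432, 39 and 778. With no filter on dim probes 11 passed in T47D-PA6 over T47D-VC1, and with a fit to those lines alone 15. Leaving out 1 array gave 4 to 30, 1 to 7 and 6 to 29. In T47D-PA6 over T47D-VC1 it was 10 and 6 without T47D-VC1 replicates 2 and 3, 13 without T47D-PA5 replicate 3, and 4 without T47D-PA6 replicate 2 or 3. For T47D-PA5 over T47D-VC1, 2 and 1 passed without T47D-PA5 replicates 2 and 3 and 4 without replicate 2 or 3 of T47D-VC1 or of T47D-PA6, and in T47D-PA6 over T47D-PA5 it was 29 and 27 without replicate 1 of T47D-VC1 and of T47D-PA6, 6 without T47D-PA5 replicate 2 or 3, and 7 and 6 without T47D-PA6 replicates 2 and 3. The cause was not tested. The replicate block gave 29, 8 and 21, with 6, 3 and 8 calls gained and 1, 1 and 3 ended. The replicate numbers were not shown to be pairs in any comparison. In T47D-PA5 over T47D-VC1 LINC00867 (-1.48, adjusted p = 0.17) was among those gained (adjusted p = 0.0038). For T47D-PA6 the replicate block ended the calls of LINC01503 over T47D-VC1 (adjusted p = 0.054) and of LINC00240, LINC00870 and LINC01431 over T47D-PA5. For T47D-PA5 over T47D-VC1 it ended that of LINC00341 (adjusted p = 0.063). With the slide as a block LINC00152, LINC00870, LINC01119, LINC01351 and LINC01503 also missed the threshold in T47D-PA6 over T47D-VC1 (adjusted p = 0.062, 0.065, 0.055, 0.067 and 0.066). The 75th percentile shift gave 1 higher and 4 lower in T47D-PA5 over T47D-VC1, and normexp 21 higher and 8 lower in T47D-PA6 over T47D-VC1. Of the 24, 6 and 16 LINC calls, 0 changed sign in any of 21 alternatives; neighbors were not followed through them. Differences in T47D-PA6 over T47D-VC1 that had not passed did: LINC00086 (0 with the 75th percentile shift and with the mean of probes, 0.04 without replicate 1), LINC00657 (-0.05 with the shift, -0.03 with the slide block), LINC00673 (0 with the shift, -0.07 without replicate 1), LINC00963 (-0.01 without replicate 1) and LINC00665 (0 with the mean of probes). Leaving out 1 array gave -0.12 to 0 for LINC00086, -0.50 to 0.10 for LINC00467, -0.29 to 0.06 for LINC00160, -0.10 to 0.17 for LINC00657, -0.03 to 0.27 for LINC01021, -0.10 to 0.16 for LINC00673 and -0.05 to 0.30 for LINC00963.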

Other observations

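The signals of LINC00448 and LINC01252 were high on a single array, replicate 1 of T47D-PA6. LINC00448 was at 576 there and between 22.1 and 30.8 on the other 8 arrays, and LINC01252 was at 522 there and between 42.8 and 68.1 elsewhere. Neither passed in T47D-PA6 over T47D-VC1 (limma adjusted p = 0.41 and 0.37), and neither has a second tested probe. Both were chosen after their values were seen.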
